A study of Drosophila melanogaster with 4 samples.

Results

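The cells described here were chosen as female somatic gonadal precursors from the droplet RNA library of 8- to 20-h embryos by a rule on marker genes. The label is that of the rule, and some groups of these cells, and of nuclei that met it, depart from the label below. Cells were selected on their measured UMIs: a cell needed at least 3 unique molecular identifiers (UMIs, each standing for a captured transcript) of IRSp53, CG5149 and rgn together, and more of these than of magu, CG7194, CG14984, CG14072 and upd1 together. It also needed fewer than 5 UMIs per 10000 from 9 germ cell genes (nos, vas, pgc, zpg, aub, AGO3, gcl, ovo and tej), and at least 1 UMI of Wnt6, Wnt2, tj, eya or Six4. Of the 12569 cells of the library, 1664 were chosen (13.2%, exact binomial 95% interval 12.7 to 13.8), and they are called female-rule cells. The mirrored rule, with the female and male sums exchanged, took 1987 male-rule cells (15.8%, interval 15.2 to 16.5). These choices rest on measured RNA, so every level and ratio in these cells is a description and carries no test.

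All libraries came from Drosophila melanogaster embryos whose germ cells carry vas-GFP, a transgene that marks the germline and not the soma. Cells or gonads with GFP were sorted, and RNA was read with the 10x droplet assay. For the 8- to 20-h cell library, sorted germ cells came from the earlier collection and whole gonads, with their soma, from the later one. Gonads of the 8- to 20-h cell library were dissociated with enzymes, while those for nuclei were lysed with no such step. The series holds 4 libraries, each a single sample with no replicate: RNA of cells at 0 to 8 h, RNA of cells at 8 to 20 h, and nuclear RNA and open chromatin (ATAC) read from the same nuclei at 0 to 20 h. Somatic cells reached the sort only as part of a GFP-positive gonad or beside germ cells, so numbers of cells here are numbers captured and not numbers in the embryo.

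Somatic gonadal precursors are mesodermal cells that meet the migrating germ cells, enclose them and form the gonad with them. They are sexed by their own chromosomes through Sex-lethal, transformer and doublesex, and they signal their sex to the germ cells. In females they give rise to the somatic cells of the ovary, among them those that later carry the germline stem cell niche. Male precursors are known for unpaired ligands that act on germ cells through JAK-STAT signaling.

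Because each library is 1 sample, levels are the summed UMIs of a group of cells per 1000000 of its UMIs (CPM), and groups were compared by the ratio of their CPM with an exact 95% conditional interval that covers counting error only. Genes with a mean of at least 10 CPM over the 2 groups were compared, and a ratio of at least 2 in either direction is called higher or lower. In a sum, cells rich in UMIs weigh more than poor ones. UMIs were captured at transcript ends, so CPM are compared between groups for a gene and not between genes. Female-rule cells held 9411018 UMIs, with a median of 2343.5 per cell (quartiles 1717 and 5233.25, range 542 to 119885). The median was 4807 in male-rule cells, 2409 in the 3045 other cells with few germ markers, and 19146 in the 5873 cells rich in germ markers. No barcode of a female-rule cell was shared with the other libraries. Scrublet marked 35 female-rule cells (2.1%) as doublets against 558 (4.44%) in the library, and these were kept.

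The rule genes themselves showed how the cells were taken, and their values are given with no test. IRSp53, which links Rac to actin at the cell membrane, stood at 1158 CPM in female-rule cells, 159 in male-rule cells and 54.7 in all other cells. CG5149 stood at 1048, 214 and 76.8 CPM, and rgn, which encodes a lectin-like protein first known from wing disc regeneration, at 1783, 489 and 109 CPM. A cell held a median of 9 UMIs of these 3 genes (quartiles 6 and 19), while IRSp53 was missing in 8.29% of cells, CG5149 in 11.8% and rgn in 9.07%. Of the genes of the male sum, magu, which encodes a secreted modulator of BMP signaling, stood at 24.5 CPM in female-rule cells and 391 in male-rule cells. CG14984 stood at 22.9 and 282 CPM, CG14072 at 136 and 439, and upd1, the JAK-STAT ligand, at 41.0 and 141. CG7194 did not separate the groups in this way, with 1087 CPM in female-rule cells and 1780 in male-rule cells.

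**Figure D1:**
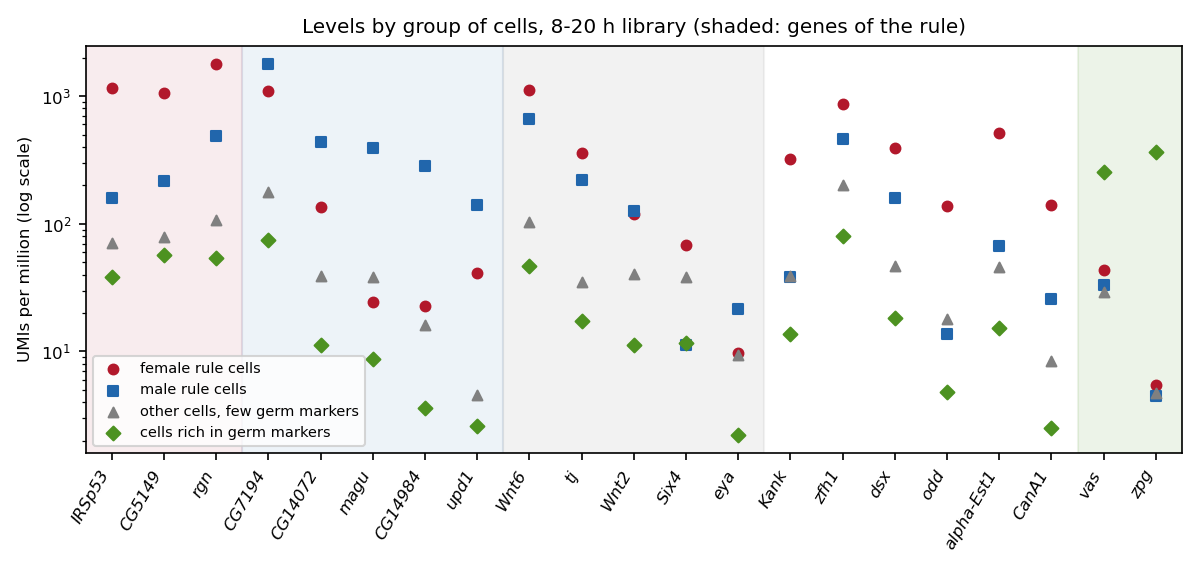
Levels of 21 genes in the 4 groups of cells of the 8- to 20-h library, as UMIs per 1000000 on a log axis (1 point is the sum over a group). Shading marks genes used by the rule; IRSp53, CG5149 and rgn stood highest in female-rule cells, and CG7194 stood at 1087 there against 1780 in male-rule cells.

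At the edge of the rule the cells just outside had lower levels of Wnt6, Kank, tj and dsx than those just inside, at a like depth. The 123 chosen cells with exactly 3 UMIs of the female genes had a median of 1694 UMIs, 888 CPM of Wnt6, 301 of Kank, 317 of tj and 360 of dsx. The 83 cells with 2 UMIs that met every other condition had a median of 1616 UMIs, 663 CPM of Wnt6, 151 of Kank, 222 of tj and 256 of dsx. The RNA level of Six4 was 215 CPM just inside and 260 just outside, above the 68.0 CPM of all female-rule cells.

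Unsupervised clustering of the whole library gave 22 clusters, and 2 of them held 1419 (85.3%) of the female-rule cells. Cluster 1 held 1167 of them among its 2049 cells, and cluster 5 held 252 among 725. Of the 2774 cells in both clusters 1355 were not chosen: 296 had fewer than 3 UMIs of the female genes, 517 had too many germ marker UMIs, 108 had no UMI of the 5 gonadal genes, and 434 had a male sum that reached the female sum. In 422 of these 434 cells the male sum reached the female sum only through CG7194, which stood at 1472 CPM in cluster 1, 1933 in cluster 5 and 1531 in cluster 3, the largest cluster of male-rule cells. With CG7194 left out of the male sum, an alternative chosen after seeing the data, 2161 cells met the female rule and 1253 the male rule, and 415 cells moved from male to female. The male-rule cells thus include 324 cells of clusters 1 and 5, and many female-to-male ratios below are given with CG7194 left out as well. The 20 genes with the largest ratios to all other cells, described below, were 3.70 to 15.6-fold higher than in male-rule cells, and 6.64 to 112-fold with CG7194 left out.

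Genes and chromosomes that the rule did not use were then read. Kank and zfh1 were on marker lists chosen with earlier results of these data known, so their levels are no independent check of the label. Kank, an ankyrin-repeat scaffold of the cytoskeleton, stood at 321 CPM against 18.5 in all other cells, and zfh1, a zinc finger and homeodomain factor of the mesoderm and gonad, at 873 against 134. The Wnt ligand gene Wnt6 stood at 1122 against 122 CPM, and tj, a large Maf transcription factor of the gonadal soma, at 361 against 42.0, but both are among the 5 genes of which the rule asks for a UMI, so these levels are partly set by the choice of cells. The share of a cell's UMIs from X-linked genes had a median of 15.5% in female-rule cells (quartiles 14.9 and 16.2) and 14.6% in male-rule cells (quartiles 14.0 and 15.2). It was 15.6% for the female-rule cells of clusters 1 and 5 and 15.0% for the 245 elsewhere. For the 324 male-rule cells inside clusters 1 and 5 it was 15.2%, against 14.5% for the 1663 male-rule cells elsewhere. Y-linked genes gave 2 UMIs in all female-rule cells, 9 in all male-rule cells and 3 in the other cells with few germ markers. These counts are too few to tell the sex of somatic cells.

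Markers of most other cell types summed to less in female-rule cells than in the other cells with few germ markers, but those of cardiac and pericardial cells, visceral muscle and oenocytes summed to more. The 7 hemocyte markers summed to 201 CPM, against 81.0 in male-rule cells and 1854 in the other cells with few germ markers, and 1 of the 7 was at 0. The 8 muscle markers summed to 917, 696 and 5725 CPM, and the 6 neuronal markers to 193, 99.9 and 427. Against the other cells with few germ markers, fat body markers summed to 2.13 against 470.0 CPM with 4 of 6 measured genes at 0, midgut markers to 4.25 against 35.8 and epidermal markers to 7.12 against 42.7. Glial markers summed to 37.9 CPM, against 51.3 in male-rule cells. Against the other cells with few germ markers, sums were 52.8 against 351 CPM for trachea, 24.5 against 161 for salivary gland and 12.5 against 15.6 for amnioserosa. Cardiac and pericardial markers summed to 1013 CPM, of which Him gave 931, against 613 in male-rule cells and 303 in the other cells with few germ markers. Visceral muscle markers summed to 1346, 1490 and 611 CPM in these groups, and oenocyte markers to 234, 249 and 193. The 9 germ cell markers, which the rule limited, summed to 176 CPM against 1361 in cells rich in them. The part of these cells or of free RNA in the ratios below was not tested. The mitochondrial share of UMIs had a median of 0.819% in female-rule and 0.615% in male-rule cells.

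In the 0- to 8-h library, 0 of 3802 cells met the female rule, which allows a share of up to 0.0789% (3 counts of the total; the exact binomial upper limit is 0.097%), and 1 met the male rule. By the paper that library was made from sorted germ cells. Its count was thus largely set by the collection and does not estimate a share in the embryo. Gonads with their soma were taken only in the later collection of the 8- to 20-h window. Female-rule cells could be described only within that window, whose collections were pooled into 1 library.

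Against all other cells of the library, 1010 of 5931 compared genes (17.0%) were at least 2-fold higher in female-rule cells and 2149 (36.2%) were at least 2-fold lower. The median ratio was 0.71, and most UMIs of the other cells came from germ cells. With germ-marker-rich cells left out of the comparison, 463 genes were at least 2-fold higher and 1070 lower. The 20 genes with the largest ratios, rule genes left out, stood 16.0 to 25.0-fold higher. At their head was CanA1, a catalytic subunit of calcineurin, at 141 CPM against 5.65 (25.0-fold, interval 22.8 to 27.5). These folds depend on what the sums hold. With every cell weighted the same the 20 ratios were 5.53 to 8.10 (CanA1 7.64), and with germ-marker-rich cells left out of the other cells they were 5.11 to 10.8 (CanA1 7.54).

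The carboxylesterase gene alpha-Est1 stood at 517 CPM in female-rule cells and 23.7 in others (21.8-fold, interval 20.8 to 22.8). Of 2 neighbouring genes for cuticle proteins, Cpr67Fa1 stood at 59.2 against 2.72 CPM and Cpr67Fa2 at 192 against 9.02. Dscam2, a homophilic cell surface receptor of the immunoglobulin family, stood at 368 against 18.6 CPM (19.8-fold, interval 18.8 to 20.9). KCNQ, a voltage-gated potassium channel, stood at 256 against 13.0 CPM, and nyo, a zona pellucida domain protein of the cell surface, at 37.4 against 1.81. The secreted protein gene ana, known for holding neuroblasts quiescent, was 20.6-fold higher, and Cp7Fb, an X-linked chorion protein gene, 18.7-fold. A further 6 genes with no symbol other than a CG number (CG45095, CG2082, CG4168, CG14855, CG14856 and CG31324) were 16.0 to 20.2-fold higher, with CG2082 at 871 CPM against 43.4.

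Transcription factors were on the list too. The odd-skipped relatives drm and odd, zinc finger genes of segmentation and of the early gonad, were 21.6-fold (interval 18.8 to 24.7) and 20.0-fold (interval 18.3 to 21.8) higher. The POU factor gene pdm3 stood at 725 CPM against 43.3. A gene outside these factors, CG32850 on chromosome 4, also has only a CG number and stood at 1861 against 111. The 20 genes were also read in nuclei, a library that did not choose them: 16 passed the minimum there, and all 16 were at least 2-fold higher in the 164 nuclei that met the female rule than in the other nuclei. The minimum is a mean over the 2 groups, so a low gene can pass only through the group where it is high. Below the minimum the ratios were 3.01 for CanA1, 3.0 for Cp7Fb, 1.84 for CG14855 and 1.12 for ana. Of all 5183 genes compared in nuclei, 388 (7.49%) were that much higher. Over the 4915 genes compared in both libraries outside the rule, 895 were higher in cells and 319 in nuclei, and 300 were shared, which is 33.5% of the first set and 94.0% of the second.

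Shares of cells with a UMI were compared after thinning every cell to 1000 UMIs, which left out 32 female-rule, 30 male-rule and 405 germ-marker-rich cells. Wnt6 was then detected in 70.1% of female-rule cells (91.5% unthinned), 44.8% of male-rule cells and 11.0% of germ-marker-rich cells. That last group is no background of free RNA, since 695 of its 5873 cells lay in clusters 1 and 5. The background was therefore read, by a choice made after seeing the data, in the 3538 germ-marker-rich cells of clusters 2, 4 and 7, the 3 largest with no rule cell, at a median of 21778.5 UMIs before thinning, where Wnt6 was detected in 0.199% of thinned cells (3.48% unthinned). Thinning removes most UMIs of these deep cells, so free RNA that does not grow with depth would be understated by their thinned shares. Kank was detected in 33.6% of female-rule cells (61.8% unthinned) and 4.60% of male-rule cells. In clusters 2, 4 and 7 its share was 0.113% (4.58% unthinned). For alpha-Est1 the thinned shares in the same order were 40.6%, 6.08% and 0.170%. Unthinned they were 67.2% in female-rule cells and 1.64% in clusters 2, 4 and 7. For dsx the thinned shares were 34.4%, 13.8% and 0.0851%, and the unthinned ones 65.4% and 3.67%. The genes odd and CanA1 were seen in fewer cells. For odd the share was 9.19% of female-rule cells (24.9% unthinned) against 0.0567% in clusters 2, 4 and 7 (1.75% unthinned). For CanA1 it was 4.41% (14.9% unthinned) against 0.0284% (0.452% unthinned). In male-rule cells the thinned share of odd was 0.818%.

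Female-rule and male-rule cells were compared over 5330 genes, of which 396 (7.43%) were at least 2-fold higher and 783 (14.7%) at least 2-fold lower in female-rule cells, with a median ratio of 0.968. Without CG7194 in the male sum 595 genes were higher and 844 lower. The same 2 groups of nuclei, 164 female-rule and 44 male-rule, gave 411 (8.54%) higher and 311 (6.46%) lower of 4813 genes. Male-rule nuclei held 1056 to 353052 UMIs each, so their sums follow a few deep nuclei. Over 4505 genes compared in both libraries outside the rule, 298 were higher in cells and 330 in nuclei, and 155 were shared (52.0% and 47.0% of these sets). Of 639 genes lower in cells and 279 lower in nuclei, 136 were shared (21.3% and 48.7%).

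The largest female-to-male ratios in cells included genes that few female-rule cells held. ImpE2 and ImpL1, genes first found as ecdysone-inducible in imaginal discs, were 72.9-fold (97.4 against 1.34 CPM) and 35.1-fold (76.5 against 2.18 CPM) higher in female-rule cells. Osi7, Osi6 and Osi15, of the Osiris family expressed where cuticle forms, were 59.4, 21.6 and 21.0-fold higher, and CG14110, CG9184, CG4702 and CG15282 were 11.4 to 23.2-fold higher. With CG7194 left out CG4702 was 33.4-fold and CG15282 18.7-fold higher. Only 1.32% of female-rule cells held a UMI of ImpE2 and 1.74% one of Osi6, and germ-marker-rich cells held them in 1.19% and 2.15% of cells. The female-rule cells of clusters 1 and 5 were also set against all male-rule cells, inside and outside these clusters. The direction then turned for ImpE2 (ratio 0.686), Osi6 (0.631), Osi15 (0.869), CG9184 (0.755) and CG4702 (0.272). The higher levels of these 5 genes thus lay in female-rule cells outside the main clusters. In the same comparison Osi7 was 7.33-fold higher, and ImpL1, CG14110 and CG15282 were 1.19, 1.28 and 1.45-fold higher. The gene nyo kept its ratio, at 15.6-fold higher (interval 11.0 to 22.9) in all female-rule cells, 15.9-fold in those of the 2 clusters and 112-fold (interval 30.7 to 925) with CG7194 left out.

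Genes lower in female-rule than in male-rule cells were led by jbug, a filamin-type actin-binding protein, at 1.38 against 47.7 CPM (34.5-fold lower, interval 20.1 to 65.2). Npc2f, of the NPC2 sterol-binding family, was 17.9-fold lower, WRNexo, a relative of the Werner exonuclease, 16.9-fold, and sona, a secreted metalloprotease, 13.4-fold. Best2, a bestrophin chloride channel, stood at 9.88 against 117 CPM (11.8-fold lower, interval 9.59 to 14.7), and it was found in 3.73% of female-rule and 42.7% of male-rule cells. CG9752, NPFR (the neuropeptide F receptor), Notum (a secreted inhibitor of Wnt ligands) and CG7059 were 11.0 to 11.6-fold lower. Of these 9 genes 3 passed the minimum in nuclei, and jbug, Best2 and NPFR were 3.78, 10.7 and 5.39-fold lower there. Below the minimum, on few UMIs, Npc2f and Notum had female-to-male ratios of 1.19 and 1.99 in nuclei. Those of WRNexo, sona, CG9752 and CG7059 were below 1. With CG7194 left out of the male sum the 9 genes were 2.91 to 23.9-fold lower.

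**Figure D2:**
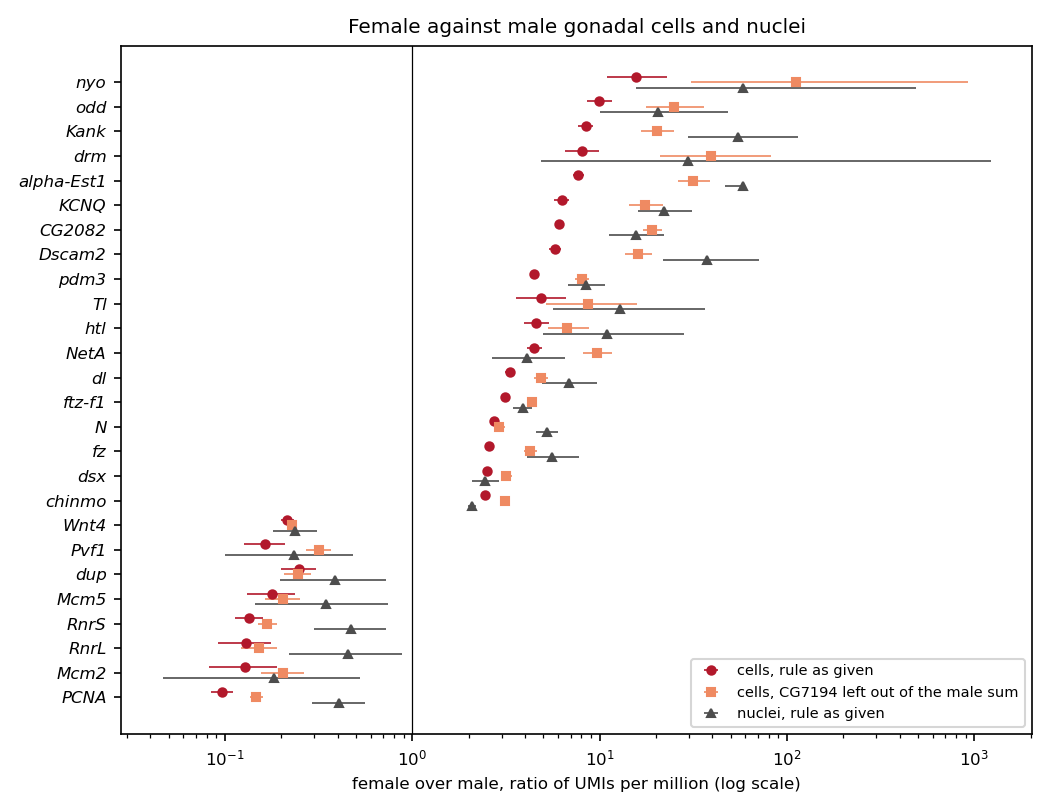
Ratio of female-rule to male-rule CPM for 26 genes on a log axis, with exact 95% intervals for counting error, in cells, in cells with CG7194 left out of the male sum, and in nuclei. A ratio of 1 is the vertical line; replication genes such as PCNA (0.0969 in cells) stand to its left in all 3 sets and Kank, odd and nyo to its right, and alpha-Est1 in nuclei is a lower bound because male-rule nuclei held 0 UMIs.

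Gonadal soma factors were higher in female-rule cells than in all other cells for the most part, and 7 of 12 also differed at least 2-fold from male-rule cells. Of 15 listed genes, 9 of 11 compared were at least 2-fold higher than in all other cells, and against male-rule cells 5 of 12 were higher and 2 lower, where 7.43% and 14.7% of all genes were. The nuclear receptor gene ftz-f1 stood at 1414 against 453 CPM (3.13-fold, interval 3.03 to 3.22), and bowl at 43.6 against 19.1 CPM (2.28-fold). The ratios of odd and drm were 9.97 and 8.05, and 24.9 and 39.1 with CG7194 left out. The list had a median ratio of 6.51 to all other cells and 1.91 to male-rule cells, beside medians of 0.71 and 0.968 over all compared genes. Counts and medians by list include genes of the rule, such as Six4 and eya here. Values of those genes are partly set by the choice of cells. Six4, whose product partners with Eya, was 6.04-fold higher over all female-rule cells but 1.10-fold for those of clusters 1 and 5, both against all male-rule cells. The genes eya and tup were 2.20-fold and 2.25-fold lower, and tup was 1.26-fold higher with CG7194 left out.

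Of the sex determination genes, dsx, the last gene of that hierarchy, stood at 395 CPM in female-rule cells, 158 in male-rule and 36.7 in all other cells. It was 2.50-fold higher than in male-rule cells (interval 2.37 to 2.64) and 2.45-fold in nuclei. Sxl, the switch gene that is on in females, stood at 207 against 115 CPM (1.80-fold) in cells and 2.38-fold in nuclei, while tra and tra2 were 1.63 and 1.14-fold. Counts summed by gene do not tell female from male splice forms of Sxl, tra or dsx. The gene fru was 2.63-fold lower, at 32.2 against 84.7 CPM, a difference that went to a ratio of 0.946 with CG7194 left out. The compared genes of the dosage compensation complex (msl-1, msl-3 and mle) had ratios of 0.752 to 1.26. Hox genes of the gonad were present in both, with abd-A at 162 against 146 CPM and Abd-B at 147 against 81.4.

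Signals that gonadal soma sends were lower or alike in female-rule cells for several ligands. The JAK-STAT ligand upd3 stood at 24.8 CPM against 70.9 in male-rule cells (2.87-fold lower), and upd1, a rule gene, was 3.45-fold lower, but with CG7194 left out the ratios were 1.19 and 1.01. Under that alternative the female cells held upd1 at 105 CPM. In the female-rule cells of clusters 1 and 5 upd1 stood at 3.52 CPM, a ratio of 0.0249 to all male-rule cells. Most UMIs of both genes in female-rule cells lay in group 4, described below. There upd1 stood at 133 CPM and upd3 at 76.4, against 3.59 and 3.74 in the other female-rule cells. Wnt4 stood at 79.3 against 368 CPM (4.65-fold lower), and was 4.21-fold lower in nuclei. Pvf1, a ligand of the PDGF and VEGF receptor Pvr, stood at 7.76 against 47.2 CPM (6.09-fold lower), with a ratio of 0.164 that was 0.317 with CG7194 left out. The FGF ligand gene pyr stood at 249 against 182 CPM (1.37-fold higher, interval 1.29 to 1.45) and 36.6 CPM in all other cells, and bnl at 18.3 against 12.0 (1.52-fold). Wnt6 was 1.69-fold higher than in male-rule cells (interval 1.64 to 1.74) and 3.22-fold in nuclei, and Wnt2 stood at 120 against 126 CPM. The guidance ligand gene NetA had the largest female-to-male ratio of the ligand genes named here, at 186 against 41.5 CPM (4.49-fold, interval 4.08 to 4.93), 9.69-fold with CG7194 left out and 4.11-fold in nuclei.

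Receptors and intracellular parts of several pathways were at least 2-fold higher in female-rule cells. The FGF receptor gene htl stood at 71.8 against 15.7 CPM (4.58-fold, interval 3.93 to 5.35) and was 10.9-fold higher in nuclei. The Wnt receptor gene fz stood at 388 against 151 CPM (2.57-fold) and the receptor gene Notch (N) at 499 against 182 (2.74-fold, interval 2.61 to 2.87). In the Toll pathway the receptor gene Tl was 4.85-fold and dl, its NF-kappaB factor, 3.31-fold higher, while the inhibitor gene cact was 1.96-fold and the ligand gene spz 1.39-fold. The integrin gene if was 2.88-fold higher and wun2, a lipid phosphatase gene that steers migrating germ cells, 4.25-fold, at 19.8 against 4.65 CPM. With CG7194 left out fz, Tl, if and wun2 were 4.27, 8.72, 4.96 and 6.51-fold higher, and in nuclei fz, N, Tl, dl and if were 5.59, 5.23, 12.9, 6.85 and 6.41-fold higher. By list, 6 of 8 compared Toll genes, 7 of 14 Wnt genes, 2 of 3 FGF genes and 5 of 10 Notch genes were higher than in all other cells, where 17.0% of all compared genes were. The Wnt count includes Wnt6 and Wnt2, genes of the rule, so it is partly set by the choice of cells. Against male-rule cells, where 7.43% of all genes were higher, 2 of 7 Toll genes, 1 of 16 Wnt genes, 1 of 3 FGF genes and 4 of 10 Notch genes were higher, and the lower ones were Wnt4, Notum and the Notch glycosyltransferase gene fng (2.24-fold lower).

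Responses of these pathways did not all follow in the same direction. The Notch targets E(spl)m3-HLH and E(spl)m7-HLH were 2.03-fold and 6.54-fold higher, but in nuclei the ratio of E(spl)m3-HLH was 0.743. Group 5 of the female-rule cells, described below, held E(spl)m7-HLH at 510 CPM, against 34.2 in the other female-rule cells. The gene chinmo, which maintains male identity in somatic stem cells of the adult testis, stood at 5898 against 2425 CPM (2.43-fold, interval 2.40 to 2.47) and was 2.08-fold higher in nuclei. The feedback inhibitor Socs36E of JAK-STAT signaling stood at 977 against 626 CPM (1.56-fold). The EGF receptor genes sty and aos, feedback inhibitors, were 1.85 and 1.61-fold, so that 0 of 11 genes of that list were called in either direction against male-rule cells, while 8 of 10 were higher than in all other cells (17.0% of all genes were). For Hedgehog genes 3 of 6 were higher than in all other cells and 0 of 6 were called against male-rule cells, and for JAK-STAT genes 5 of 7 were higher than in all other cells and 1 of 7 (chinmo) than in male-rule cells, where 7.43% of all genes were, a share that these small counts do not stand apart from. The ecdysone receptor gene EcR was 2.24-fold and the ecdysone-induced receptor gene Hr4 2.43-fold higher than in male-rule cells, Hr4 1.26-fold for the female-rule cells of clusters 1 and 5.

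Adhesion and matrix genes set female-rule cells apart from all other cells of the library more than from male-rule cells. Most UMIs of those other cells came from germ cells. Of 14 compared adhesion genes 10 were higher than in all other cells (17.0% of all genes were), among them Fas2, a neural cell adhesion molecule relative, at 3450 against 622 CPM. Against male-rule cells 1 of 15 was higher (if) and 1 lower, the N-cadherin gene CadN, at 123 against 333 CPM, and CadN had a ratio of 1.18 with CG7194 left out. Of 13 basement membrane genes 9 were higher than in all other cells, with the perlecan gene trol at 1036 against 155 CPM. The list summed to 2843 CPM in female-rule cells and 419 in germ-marker-rich cells, but to 4447 in the other cells with few germ markers. Adhesion genes summed to 7762, 1473 and 2952 CPM in these groups. The collagen IV gene vkg was 2.42-fold and Mmp2 2.08-fold higher than in male-rule cells, but vkg had a ratio of 0.494 for the female-rule cells of clusters 1 and 5. In the lists of actin protrusion, BMP and activin, slit and netrin guidance, innexin and germ cell attraction genes, 4 of 18, 4 of 13, 4 of 10, 1 of 4 and 1 of 6 compared genes were higher than in all other cells, beside 17.0% of all genes. Against male-rule cells 2 of 18 (IRSp53 and Kank), 1 of 13 (dally, a heparan sulfate proteoglycan gene, 2.04-fold), 1 of 10 (NetA), 0 of 3 and 1 of 7 (wun2) were higher, beside 7.43% of all genes, and dally was 3.31-fold higher with CG7194 left out. Several of these counts lie near those shares, and IRSp53 is a gene of the female sum, so its call was set by the rule. Visceral muscle markers, 2 of which were compared (bin and Fas3), had ratios of 1.10 and 0.886, and of 1.76 and 1.67 with CG7194 left out.

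Genes of DNA replication and division were the list with the most genes lower. Of 15 compared genes 12 were at least 2-fold lower than in all other cells, which hold the germ cells (36.2% of all genes were that much lower), and 8 of 13 were lower than in male-rule cells, where 14.7% of all genes were. The median ratio of the list was 0.209 to all other cells and 0.362 to male-rule cells. PCNA, the sliding clamp of DNA polymerase, stood at 25.5 CPM in female-rule cells, 263 in male-rule and 206 in all other cells (10.3-fold lower than in male-rule cells, interval 9.06 to 11.8). The helicase genes Mcm2 and Mcm5 were 7.85 and 5.63-fold lower (4.91 and 4.89-fold with CG7194 left out), the ribonucleotide reductase genes RnrL and RnrS 7.73 and 7.41-fold, and dup, the Cdt1 licensing factor, 4.04-fold. In nuclei the ratios of PCNA, Mcm5, RnrL, RnrS and dup were 0.407, 0.346, 0.456, 0.470 and 0.388, and with CG7194 left out PCNA was 0.147 in cells. Neither a trigger nor a brake of division on the list was lower. The trigger stg, the Cdc25 phosphatase of mitotic entry, stood at 1347 against 823 CPM, and the brake dap, an inhibitor of cyclin E and its kinase, at 213 against 128. Depth per cell differed as well, with medians of 2343.5 and 4807 UMIs, and its part in this difference was not tested.

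**Figure D3:**
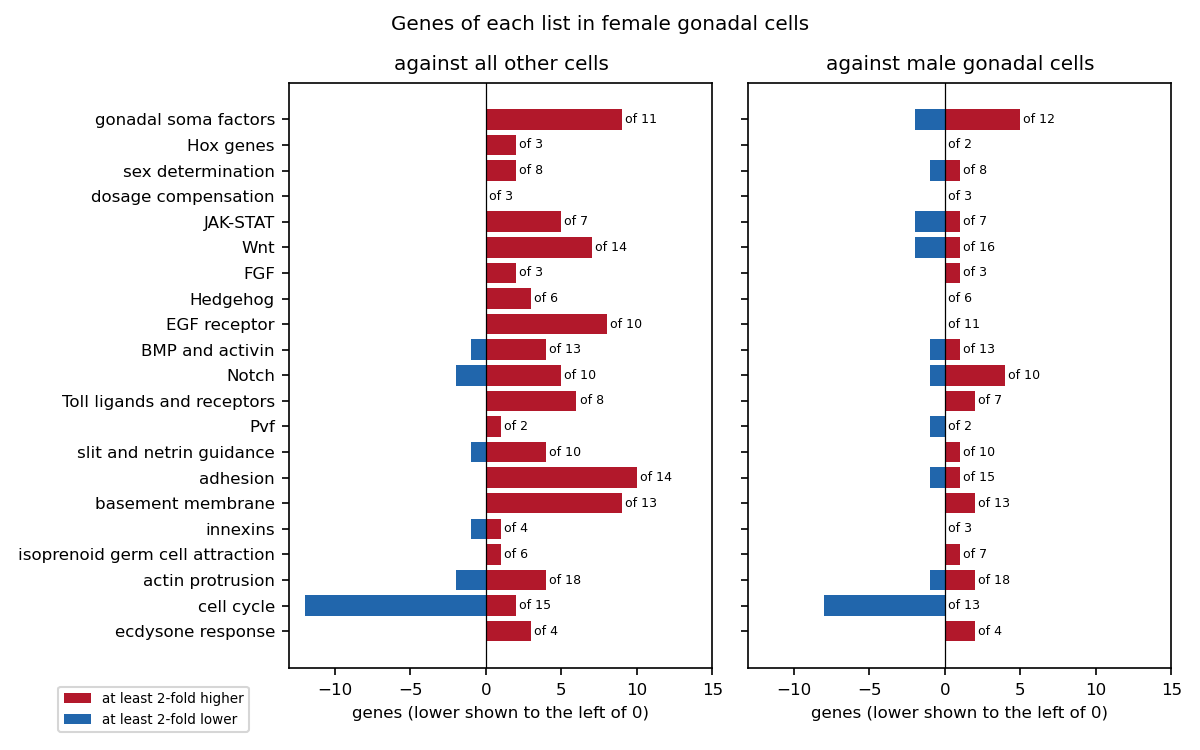
Number of genes of 21 lists that were at least 2-fold higher (right of 0) or lower (left of 0) in female-rule cells against all other cells and against male-rule cells. The number after each bar is how many genes of the list were compared. Cell cycle genes were lower for 12 of 15 and 8 of 13. The lists include genes of the rule.

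Female-rule cells were divided into 6 groups by clustering on their own genes, so the genes that lead a group are part of its definition. Group 1 held 708 cells (42.5%) with a median of 1888 UMIs. It was highest in Him, an inhibitor of muscle differentiation, at 1980 CPM, in the ETS regulator edl at 1342, and in E(spl)m3-HLH at 2519, with Kank at 645 and Wnt6 at 1969. Group 2 held 395 cells (23.7%) with a median of 5824 UMIs and the highest rgn (2433 CPM), CanA1 (272), drm (113) and ana (147). It also had CG7194 at 1559 CPM and the highest X-linked share, with a median of 16.0%. Group 3 held 262 cells (15.7%), 210 of them in cluster 5, with a median of 1857 UMIs. Matrix genes led it, with SPARC at 876 CPM, the collagen IV genes Col4a1 at 243 and vkg at 105, and Glt, a basement membrane glycoprotein gene, at 89.2, and Him was low at 201. Its level of Nplp2, a hemocyte marker here, was 350 CPM.

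The other 3 groups lay mostly outside clusters 1 and 5. Group 4 held 175 cells (10.5%), 116 of them elsewhere, with a median of 7708 UMIs and 11 called doublets. It held ImpE2 at 332 CPM and Osi6 at 318 against at most 17.6 in any other group, and also upd1 at 133 and CadN at 329. Group 5 held 89 cells (5.35%), 81 of them elsewhere, and stood apart in most genes of the rule. Its level of CG5149 was 226 CPM and of CG7194 58.9, while Six4 stood at 522, E(spl)m7-HLH at 510, slbo, the C/EBP factor gene known from border cells of the ovary, at 233, odd at 290 and nyo at 112. NetA and pyr were low there, at 33.2 and 46.8 CPM, and dsx stood at 435. The authors use Six4 as a marker of male-specific gonadal precursors. Abd-B stood at 255 CPM in group 5, 297 in group 3 and 139 in all female-rule cells outside group 5. The median X-linked share of group 5 was 15.4%, and whether it holds male cells was not tested. Group 6 held 35 cells (2.1%), all elsewhere, of which 19 were called doublets, and muscle genes led it, with TpnC73F at 5283 CPM, Act57B at 2976 and Mhc at 454. Its median X-linked share was 13.6%, the lowest of the 6.

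Across all 6 groups dsx stood between 172 and 450 CPM and tj between 193 and 476. PCNA was low in each, between 8.56 and 49.9 CPM, against 263 in all male-rule cells. Within clusters 1 and 5 alone, female-rule cells had 10.4-fold the Kank level of all male-rule cells, 10.7-fold the odd level and 5.75-fold the NetA level.

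**Figure D4:**
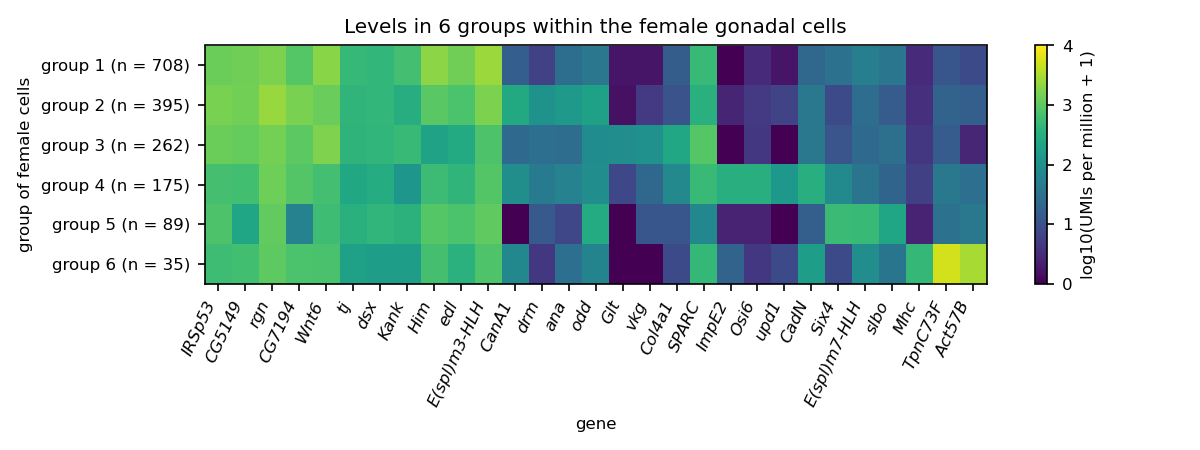
Level of 29 genes in the 6 groups of female-rule cells, as log10 of CPM plus 1 (colour; purple is low, yellow high), with the number of cells beside each group. IRSp53, rgn, tj and dsx were present in all 6; Six4 stood out in group 5 (522 CPM), ImpE2 and Osi6 in group 4, and TpnC73F in group 6 (5283 CPM).

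The nuclei gave readouts that the rule did not use. The rule applied to nuclear RNA took 164 of 3022 nuclei (5.43%, interval 4.65 to 6.30), with a median of 3213 UMIs, and the mirrored rule took 44 (1.46%), with a median of 6757.5. The RNAs roX1 and roX2 of the male soma, which belong to the complex that raises X-linked transcription in males, were read in them. Summed over the nuclei they stood at 1049 CPM in female-rule nuclei (exact Poisson interval 1000 to 1100) and 1029 in male-rule nuclei (985 to 1075), a ratio of 1.02. In this sum the nuclei go against the label female. The sum follows the deepest nuclei, which the intervals do not cover. Of 1939165 UMIs in male-rule nuclei, the deepest nuclei held 353052, 265927, 257532 and 223342. Their roX UMIs per 10000 were 5.27, 5.42, 5.94 and 6.22. Male-rule levels and female-to-male ratios in nuclei thus rest largely on a few nuclei. By nucleus the groups differed, since 89 of 164 female-rule nuclei held a roX UMI (54.3%, interval 46.3 to 62.1) and 39 of 44 male-rule nuclei did (88.6%, interval 75.4 to 96.2). After thinning to 1000 UMIs these shares were 36.0% and 63.6%.

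Female-rule nuclei divided by roX, at a limit of 5 UMIs per 10000 chosen after seeing the data, gave 99 nuclei with little or none and 65 with more. The X-linked share of ATAC counts had a median of 20.2% in the 99 (quartiles 19.0 and 21.0), 15.8% in the 65 (quartiles 13.4 and 17.5) and 13.5% in male-rule nuclei (quartiles 12.7 and 15.1). Over all 164 the median was 18.8%, with quartiles of 16.0 and 20.4 and a range of 9.86 to 28.4, and the range of the male-rule nuclei, 10.7 to 19.7, lay within it. ATAC counts per nucleus also differed, with medians of 2328, 6671 and 3762.5 in the 99, the 65 and the 44.

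**Figure D5:**
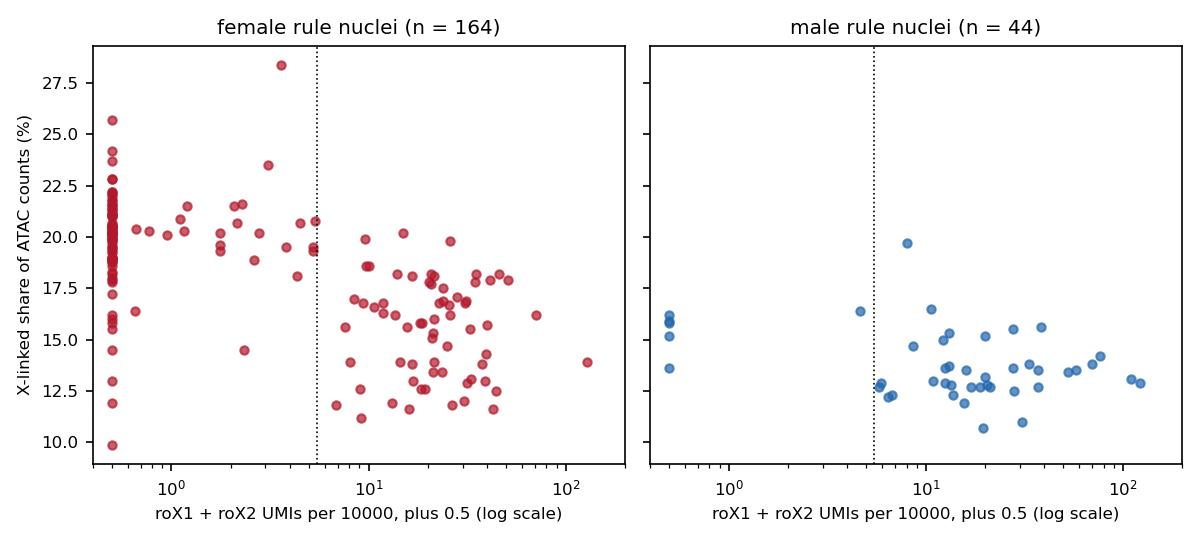
X-linked share of ATAC counts (percent) against roX1 plus roX2 UMIs per 10000 (log axis, with 0.5 added so that nuclei with none appear at the left edge), 1 point per nucleus, for the 164 female-rule and 44 male-rule nuclei. The dotted line is the limit of 5 per 10000; the 99 female-rule nuclei left of it have a median X-linked share of 20.2% and the 65 right of it 15.8%.

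RNA of the 65 roX-rich nuclei also departed from that of the 99. IRSp53 stood at 238 CPM in the 65 and 1002 in the 99, Kank at 93.9 and 430, dsx at 120 and 403, and alpha-Est1 at 18.2 and 147. Conversely magu stood at 51.8 and 4.38 CPM. Genes of other cell types were high in the 65, with Nplp2 at 9890 against 689 CPM and the chitinase-like growth factor gene Idgf6 at 1750 against 108, and Nepl15 at 497 and CG32032 at 139 were at 0 in the 99. The 65 nuclei therefore met the rule with a lower level of its genes, and the part of free or mixed RNA in this was not tested.

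In the 99 roX-poor nuclei the female-to-male differences of the cells were present, and several were larger. Against male-rule nuclei Kank was 83.4-fold higher (interval 44.9 to 175), Dscam2 53.2-fold, KCNQ 31.8-fold, odd 30.3-fold, CG2082 24.2-fold, htl 15.2-fold, dl 8.25-fold, N 5.93-fold and dsx 3.54-fold. The ratios of PCNA (0.296), RnrS (0.196) and Wnt4 (0.181) were below 1 as in cells. NetA stood at 46.0 against 13.9 CPM and pyr at 53.7 against 82.5, the direction of pyr being opposite to that in cells. Over 4751 genes compared, 441 were at least 2-fold higher and 545 lower in the 99 nuclei than in male-rule nuclei.

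Open chromatin was read near the starts of the named genes. Of 70 peaks within 1000 bases of a start of the 61 named genes, 48 held at least 30 ATAC counts in female-rule nuclei, and 5 of these (10.4%) were at least 2-fold higher than in male-rule nuclei, beside 6.09% of 9751 such peaks genome-wide. A minimum on female-rule nuclei keeps peaks that are high there and drops some that are high in male-rule nuclei. With at least 30 counts over both groups together, a choice made after seeing the data, 5 of 52 peaks were higher (9.62%, beside 5.97% of 11470) and 4 lower (7.69%, beside 3.11%). The counts are too small to set the named genes apart from all peaks. The 5 higher peaks lay at an internal start of Kank (51 against 3 counts, 5.85-fold, interval 1.89 to 29.3), at nyo (40 against 0 counts, at least 4.59-fold with 3 counts as the floor), at CG14856 (172 against 24 counts, 2.47-fold, interval 1.60 to 3.96), upstream of Dscam2 (45 against 7 counts, 2.21-fold, with an interval of 0.991 to 5.82 that includes 1, while the peak on the start itself held 14 against 7 counts, a ratio of 0.689) and at CG45095 (2.15-fold, interval 1.28 to 3.82). The peak of alpha-Est1 had a ratio of 1.76 (interval 1.02 to 3.23). At other starts whose RNA was higher in female-rule cells the ATAC ratios fell on both sides of 1. CG4702 had 1.63, CG2082 1.53 (interval 1.06 to 2.26), CG14855 1.38, CG9184 1.36, odd 1.26 and drm 1.11. Wnt6 had 0.949 and rgn 0.835. Those of IRSp53 (0.650, interval 0.357 to 1.22), CG5149 (0.704, interval 0.486 to 1.03) and CanA1 (0.598, interval 0.330 to 1.11) lay below 1 with intervals that include it. These ratios pool roX-poor and roX-rich female-rule nuclei. In the roX-poor ones alone, against male-rule nuclei, CG45095 had 3.03, alpha-Est1 2.13, Wnt6 1.28, rgn 0.923, CG5149 0.808, IRSp53 0.806 and CanA1 0.649. The 3 of 48 peaks lower in female-rule nuclei (1.55% of all such peaks were) were those of CG14072 (0.361), Best2 (0.454) and a start of eya (0.485), and, with the minimum over both groups, CG7059 (0.307, 25 against 28 counts). The RNA of these 4 genes was also lower than in male-rule cells, but this was largely set by how they were chosen. CG14072 belongs to the male sum, eya is a rule gene, and Best2 and CG7059 were named for their lower RNA.

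For the 3 peaks with the largest ratios that could be shown, the 200 bases nearest the middle that no annotated exon covers are printed, because ATAC counts and RNA of the same gene both had ratios above 2 there, with an interval that includes 1 for the ATAC counts of Dscam2. Sequence is from the RefSeq genome of the same assembly (Release 6, BDGP6), written 5′ to 3′ on the strand of the gene. The nyo window is chr3R:31542800-31542999 (+), with its middle 133 bases before the start. That of CG14856 is chr3R:14798786-14798985 (+), 101 bases before the start, and that of Dscam2 is chr3L:7191287-7191486 (−), 1455 bases before a start. None of the 3 windows lies over an annotated gene. They were searched on both strands for ACAATGT, the core of the Doublesex site, and TGCTGA, a half-site of large Maf factors such as the product of tj, and capitals mark a match.
nyo: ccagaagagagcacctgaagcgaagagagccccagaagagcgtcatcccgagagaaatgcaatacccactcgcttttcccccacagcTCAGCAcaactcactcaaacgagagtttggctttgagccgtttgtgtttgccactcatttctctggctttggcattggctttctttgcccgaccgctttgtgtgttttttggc
CG14856: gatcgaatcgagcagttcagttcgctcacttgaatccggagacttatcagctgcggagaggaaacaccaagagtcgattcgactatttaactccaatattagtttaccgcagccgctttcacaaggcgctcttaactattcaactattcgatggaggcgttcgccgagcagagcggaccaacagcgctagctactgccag
Dscam2: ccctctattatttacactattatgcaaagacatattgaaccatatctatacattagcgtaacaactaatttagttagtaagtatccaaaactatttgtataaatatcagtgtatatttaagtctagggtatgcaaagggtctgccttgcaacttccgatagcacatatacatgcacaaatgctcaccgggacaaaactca
The nyo window holds 1 match of TGCTGA, on the reverse strand and so printed as TCAGCA, and ACAATGT was found in none of the 3. Of the middle 200 bases of all 19437 peaks, 3.0% hold ACAATGT and 13.0% TGCTGA, and matches of the 2 motifs do not overlap in the 3 windows. A match is a description of letters and not of binding, and no match says only that the letters are not in the window.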

How the data were processed

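The authors aligned reads to BDGP6 and deposited gene-by-cell matrices of UMI counts (Cell Ranger 6.1.2). For 3022 nuclei filtered by them for doublets and quality, they deposited counts of RNA by gene and of ATAC by peak (Cell Ranger ARC 1.0.0, Signac). What 1 ATAC count stands for, a fragment or one of its ends, was not given in the sources used here. Each RNA library was read from its own matrix. The members, rule, markers and 21 gene lists were chosen with earlier results of these data known. Named were the rule genes with Kank, the 20 largest ratios to all other cells, the 10 largest ratios to male-rule cells in each direction (at least 50 UMIs on the higher side; 1 of those lower is not reported here), list genes by level or ratio, and peaks within 1000 bases of a start with 30 counts. Cells were clustered with scanpy 1.11.5 (2000 variable genes, 50 principal components, 20 neighbours, Leiden resolution 1; 20, 15 and 0.5 within female-rule cells; seed 1). Doublets were called with Scrublet and kept. Ratios, intervals (scipy 1.17.1) and thinning were tested on simulated data. A count of 0 was set to a floor of 3 counts per group for a bound. Intervals cover counting error only.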

Additional observations from a re-analysis of the deposited data

How the results depend on the processing

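The number of female-rule cells stayed between 1419 and 2161 under 7 alternatives. The counts of genes moved with the gene minimum and with the cells compared. With no minimum beyond 1 UMI, 1648 genes were at least 2-fold higher and 3929 lower than in all other cells, and 1222 higher and 1458 lower than in male-rule cells. With a minimum of 50 CPM these counts were 612, 742, 202 and 250. With every cell weighted the same, 646 genes were higher than in all other cells. Without germ-marker-rich cells 463 were higher and 1070 lower, beside 1010 and 2149 in the main setting. Alternatives chosen after seeing the data gave 595 genes higher than in male-rule cells with CG7194 left out of the male sum, and 1239 lower with only the female-rule cells of the 2 main clusters kept. For those cells the ratios of ImpE2 (0.686), Osi6 (0.631), Osi15 (0.869), CG9184 (0.755) and CG4702 (0.272) turned. The roX ratio of female-rule to male-rule nuclei, 1.02, was 1.21 with CG7194 left out. Thinning to 1000 UMIs took the share of nuclei with a roX UMI from 54.3% to 36.0% and from 88.6% to 63.6%. The cause of these shifts was not tested beyond the construction of each alternative. The aggregated matrix was not run. No paired analysis was possible because each library is 1 sample. Ratios of sums follow the deepest cells, and at a median of 2343.5 UMIs a gene unseen in a cell may still be expressed there.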
